A study of Mus musculus with 22 samples.

Results

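The interleukin 1 family and the inflammasome genes were followed in mouse lung 24 hours after a single instillation of Mitsui7, a multi-walled carbon nanotube (MWCNT). The 10 genes were the ligands Il1a, Il1b, Il18 and Il33, the antagonist Il1rn, the receptors Il1r1, Il1r2 and Il1rl1, and the inflammasome genes Nlrp3 and Casp1. They were found through the RefSeq accession of each probe, which gave 13 of the 55681 probes and 10 of the 20018 named genes on the arrays. Il1r2, the decoy receptor for interleukin 1, was the 1 member that differed from controls in the test, and it was up-regulated 5.14-fold at 162 µg. Il33 and Il1b had the next largest differences, up to 3.38-fold and 2.60-fold, and neither passed. The remaining 7 genes differed by at most 1.61-fold from controls at any dose.

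The mice were female C57BL/6, 8 weeks old when the experiment began. Under Hypnorm and Dormicum anaesthesia each received either vehicle (saline with bronchoalveolar lavage fluid) or 18, 54 or 162 µg Mitsui7 in that vehicle through the trachea. The right lung was profiled whole in 5 controls, 6 mice at 18 µg, 5 at 54 µg and 6 at 162 µg, so no cell type was separated and each value is a mixture. Lung RNA carried Cy5 and a universal reference RNA carried Cy3 on every array, and all levels below are log2 ratios of lung to reference after loess normalization within the array. Such a ratio can be compared between mice for 1 probe, but not between genes.

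Interleukin 1α and interleukin 1β act through the same receptor, Il1r1, and drive fever, neutrophil recruitment and acute phase responses. Interleukin 1α and interleukin 33 are held in cells of barrier tissues and act as alarm signals when those cells are damaged. Interleukin 1β and interleukin 18 are made as inactive precursors that caspase-1 (Casp1) cuts once an inflammasome, such as the one built on Nlrp3, has assembled, so much of their control lies in the protein and is not seen in RNA. Interleukin 33 binds ST2 (Il1rl1) on innate lymphoid type 2 cells, mast cells and T helper 2 cells.

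All 22 arrays, on 7 slides, were used. Between 52.1% and 83.5% of probes on an array gave a Cy5 signal above background, and 4 arrays were under 60%: 18 µg replicate 6 (56.8%), 54 µg replicate 3 (58.1%), 162 µg replicate 4 (52.1%) and 162 µg replicate 6 (53.5%). Control replicate 2 stood apart from the other controls in neutrophil genes, as given below. The brightest probe of each of the 10 members passed the filter on low signals, as did 12 of the 13 probes. Of 11 lists of cell type markers, 5 were expressed in full: those of type II alveolar cells (9 genes), alveolar macrophages, neutrophils, endothelial cells and fibroblasts. Over all lists, 3, 1 and 10 of 77 expressed marker genes passed the test at 18, 54 and 162 µg (3.9%, 1.3% and 13%), beside 2.07%, 0.389% and 6.87% of all expressed genes. Fewer cells of a type and less RNA per cell cannot be told apart in whole lung.

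The bases before the start sites of the 3 members with the largest differences are shown first, since these are the genes the results turn on. They are the 250 bases upstream of each RefSeq start on GRCm38.p6, read 5′ to 3′ on the coding strand, at chr1:40085843-40086092 (+) for Il1r2, chr2:129371140-129371389 (-) for Il1b, and chr19:29924863-29925112 (+) and chr19:29945540-29945789 (+) for Il33. Capitals mark matches to the searched letters.

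Il1r2: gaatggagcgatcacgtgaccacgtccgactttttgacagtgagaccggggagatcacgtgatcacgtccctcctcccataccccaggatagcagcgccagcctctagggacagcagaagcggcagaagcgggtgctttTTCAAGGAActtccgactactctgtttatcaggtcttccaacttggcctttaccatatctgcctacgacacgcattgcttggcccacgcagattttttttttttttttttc

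Il1b: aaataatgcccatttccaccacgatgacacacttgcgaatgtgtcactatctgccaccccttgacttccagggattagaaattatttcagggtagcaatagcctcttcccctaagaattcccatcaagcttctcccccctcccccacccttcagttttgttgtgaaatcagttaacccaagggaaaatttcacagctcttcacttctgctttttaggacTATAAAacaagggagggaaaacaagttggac

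Il33, first start: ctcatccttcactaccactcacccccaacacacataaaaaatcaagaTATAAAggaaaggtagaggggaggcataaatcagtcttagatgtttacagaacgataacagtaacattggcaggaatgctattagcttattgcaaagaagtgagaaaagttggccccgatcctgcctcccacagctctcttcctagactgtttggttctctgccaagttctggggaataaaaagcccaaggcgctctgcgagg

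Il33, second start: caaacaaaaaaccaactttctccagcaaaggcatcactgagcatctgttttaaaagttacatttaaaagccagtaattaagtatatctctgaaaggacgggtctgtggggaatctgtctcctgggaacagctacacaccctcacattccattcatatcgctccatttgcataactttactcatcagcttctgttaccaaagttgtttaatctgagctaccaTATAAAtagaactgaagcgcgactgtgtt

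The capitals in Il1b and in both Il33 windows are TATAAA, which lies 31 bases before the start in Il1b, 203 before the first start of Il33 and 29 before its second. On either strand TATAAA is found in 12.4% of the 32851 upstream windows of all genes, and in 5 of the 16 windows of the 10 members, the others being those of Il1a and, on the opposite strand, Il18. The capitals in Il1r2 match the letters TTCNNNGAA searched for STAT factors, which 7.02% of all windows hold and 1 of the 16 member windows. The AP-1 letters TGANTCA were in 2 member windows, of Il1a and Il1rn (6.75% of all windows), and a match to the NF-kB consensus was in 2, of Il1r1 and Nlrp3 (7.25% of all windows). Neither the C/EBP letters TTGCNNCAA (1.74%) nor the CRE letters TGACGTCA (1.55%) were in any member window. A match describes the letters of a window, and no binding was measured.

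In the fits, calling a gene required expression, a difference of 1.5-fold or more and an adjusted p no higher than 0.05 (limma, Benjamini-Hochberg over all probes). At 18 µg 0 of the 10 members were called, where 1.7% of all named genes were, and 3 members had an unadjusted p under 0.05. At 54 µg 0 of 10 were called against 0.32% of named genes, again with 3 under 0.05 unadjusted. At 162 µg 1 of 10 was called, Il1r2, against 5.64% of named genes, and 4 had an unadjusted p under 0.05. Over all expressed named genes 22.3%, 13.9% and 28.9% were under 0.05 unadjusted at the 3 doses. The median log2 fold change of the members was 0.15, 0.33 and 0.30 at the 3 doses, beside -0.02, -0.01 and -0.01 over all 16436 expressed named genes. Between doses, 1 member differed between 162 and 18 µg, again Il1r2, against 4.1% of named genes. None differed between 54 and 18 µg (0.025% of named genes; lowest adjusted p of a member 0.325 in limma, 1 member under 0.05 unadjusted) or between 162 and 54 µg (0% of named genes; lowest adjusted p 0.408, 2 under 0.05 unadjusted).

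**Figure D1:**
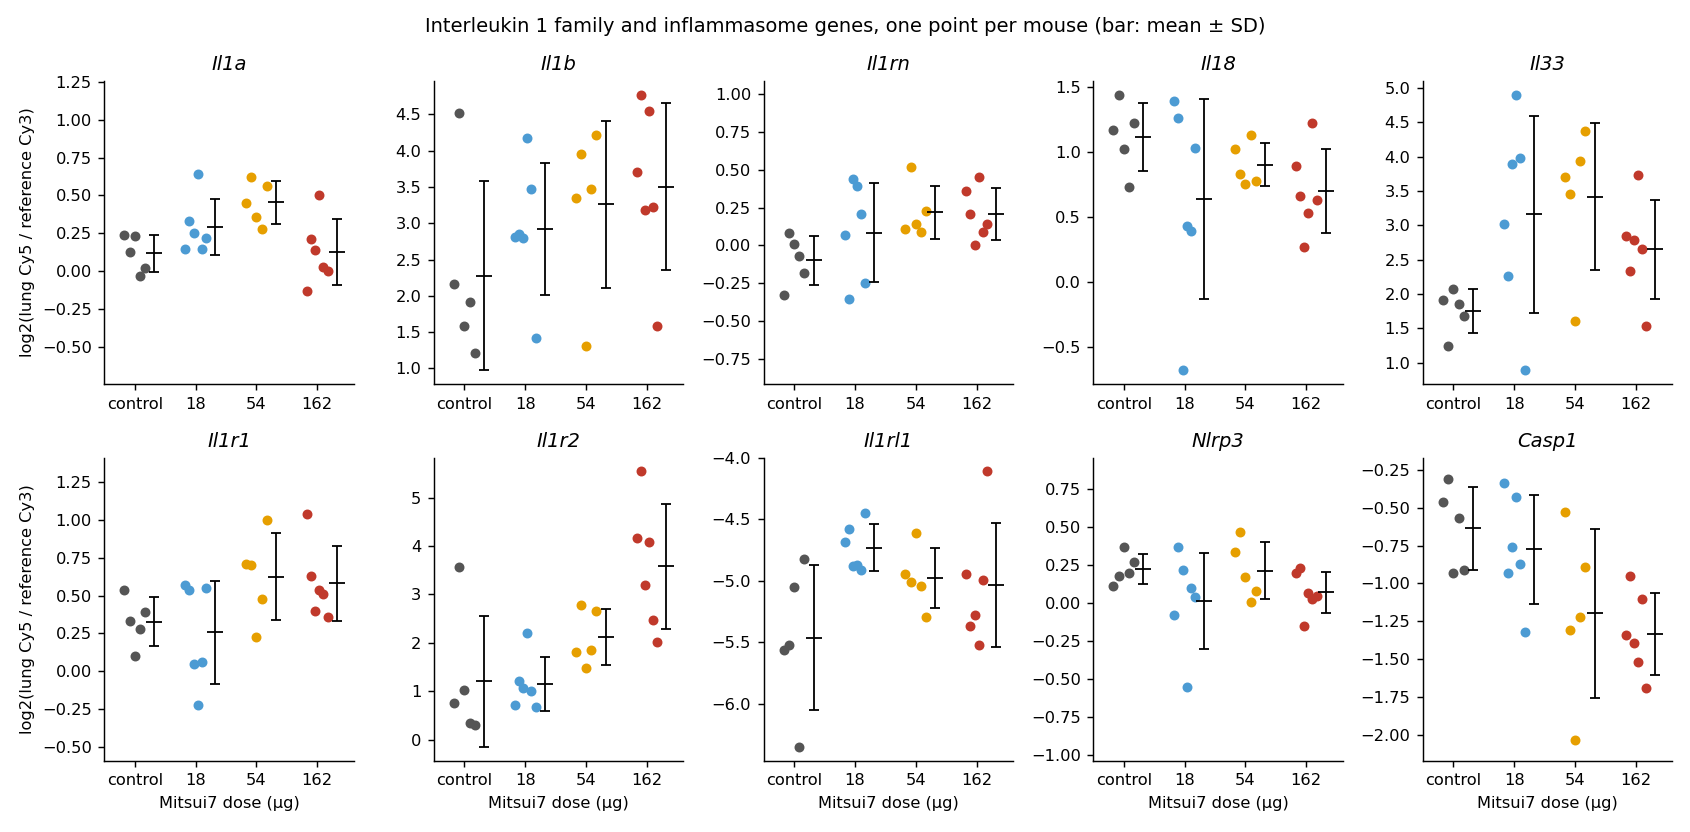
Log2 ratio of lung Cy5 to reference Cy3 (y axis) by Mitsui7 dose in µg (x axis) for the 10 genes, each on its brightest probe. Points are mice (5, 6, 5 and 6), bars are mean ± SD, and the y axis spans at least 2 log2 units in each panel. In Il1r2 the 6 mice at 162 µg lie between 2.02 and 5.54, with control replicate 2 at 3.57 among them. In Il33 most dosed mice lie above the highest control (2.07), with 1 low mouse at each dose.

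Il1r2 codes for the type 2 interleukin 1 receptor, which binds the ligand but does not signal, and is carried by neutrophils and macrophages. Its log2 ratio was 0.75, 3.57, 1.03, 0.35 and 0.31 in the 5 controls. At 18 µg it ran from 0.67 to 2.21 (median 1.04), at 54 µg it was 1.81, 2.78, 1.47, 1.86 and 2.66, and at 162 µg it ran from 2.02 to 5.54 (median 3.64). Every mouse at 54 and 162 µg was above 4 of the 5 controls, and 3 of 6 mice at 162 µg were above all 5. The group means were 1.20 ± 1.36 (SD, n = 5) for controls and 1.15 ± 0.56 (SD, n = 6), 2.11 ± 0.58 (SD, n = 5) and 3.58 ± 1.29 (SD, n = 6) with increasing dose.

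Fitted against controls, the log2 fold change of Il1r2 was 0.14 (SE 0.48, adjusted p = 0.933) at 18 µg, 1.09 (SE 0.52, adjusted p = 0.583) at 54 µg and 2.36 (SE 0.48, adjusted p = 0.00746) at 162 µg. The difference at 162 µg was 5.14-fold, with a 95% interval of 2.54 to 10.4-fold. The baseline was low. Apart from control replicate 2 (795), the control Cy5 signals of Il1r2 were 81 to 122, beside thresholds of 75.4 to 82.2 on those arrays. At 162 µg the signals were 168 to 2499. Il1r2 was well above background on 4 of 5 controls and 5 of 6 arrays at 18 µg, so the size of the fold change is uncertain. Against 18 µg the 162 µg group was 2.22 higher (SE 0.45, adjusted p = 0.00883), which is 4.65-fold. The steps from 18 to 54 µg (0.94, SE 0.48, adjusted p = 0.536) and from 54 to 162 µg (1.28, SE 0.48, adjusted p = 0.475) did not pass on their own. On the slides that held a control, the mouse at 162 µg was above the control of its own slide on 4 of 4 slides, by 0.60 to 4.51. Leaving out any 1 of the 22 mice kept the call at 162 µg, the log2 fold change being lowest (1.93) with replicate 2 of that dose left out and highest (2.93) with control replicate 2 left out.

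Il1b, the ligand whose precursor caspase-1 cuts, had log2 ratios of 2.17, 4.52, 1.58, 1.91 and 1.21 in controls. It ran from 1.42 to 4.17 (median 2.83) at 18 µg, was 3.35, 3.96, 1.31, 3.47 and 4.21 at 54 µg, and ran from 1.58 to 4.77 (median 3.47) at 162 µg. Control replicate 2, at 4.52, was above 15 of the 17 dosed mice, while 14 of the 17 were above all 4 remaining controls. The lowest Il1b of each dose group (1.42, 1.31 and 1.58) was on an array with under 60% of probes above background. The remaining such array, 162 µg replicate 4, was at 4.55. The part of low signal in these values was not tested. The fitted log2 fold change was 0.88 (SE 0.65, adjusted p = 0.581), 1.26 (SE 0.69, adjusted p = 0.669) and 1.38 (SE 0.65, adjusted p = 0.273) at the 3 doses in limma. The 95% interval at 162 µg covers 1.01 to 6.72-fold. Without control replicate 2 the difference at 162 µg was 2.01 (adjusted p = 0.0782), so the call did not change. Within slides, 9 of 11 dosed mice were above the control of their slide, and the 2 exceptions shared the slide of control replicate 2.

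**Figure D2:**
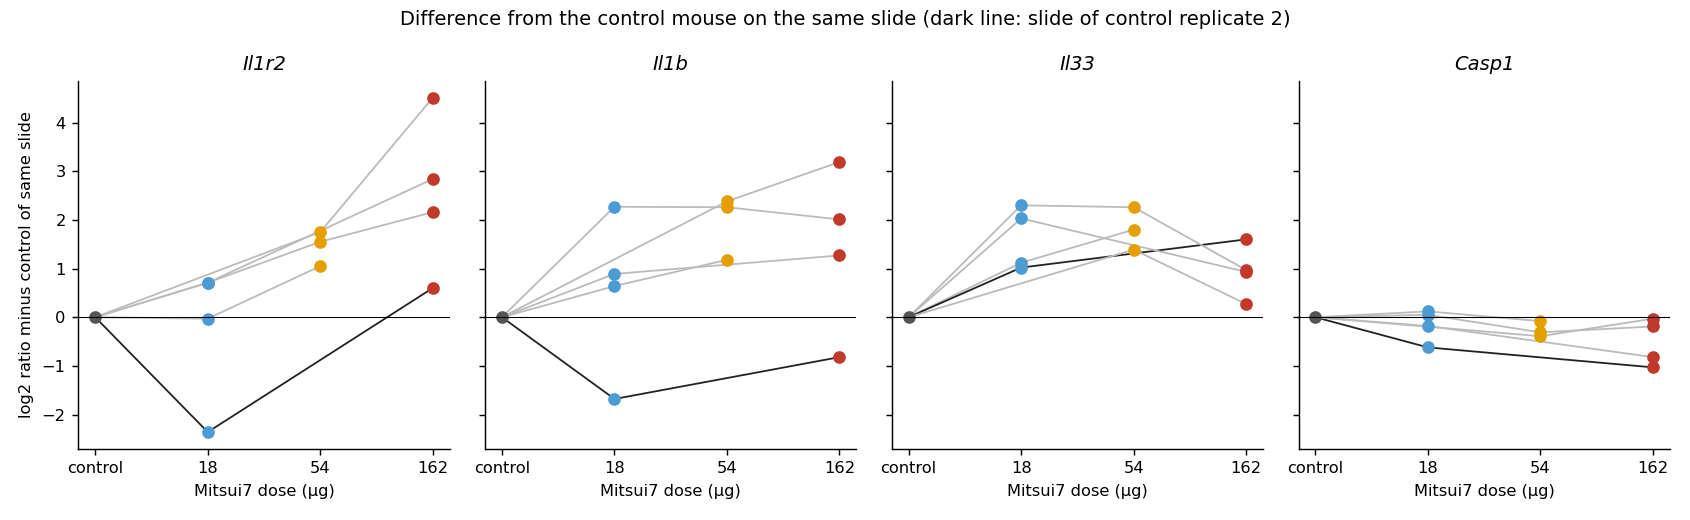
Log2 ratio minus that of the control mouse on the same slide (y axis) by dose in µg (x axis) for Il1r2, Il1b, Il33 and Casp1, on the 5 slides that held a control. Points are mice, lines join mice of 1 slide, and the dark line is the slide of control replicate 2. All 11 dosed mice are above their control in Il33, 9 of 11 in Il1r2 and in Il1b, and 9 of 11 are below it in Casp1.

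Neutrophil markers also varied between mice, and their values are given beside those of Il1b and Il1r2, which neutrophils are known to express. The mean of 12 neutrophil genes, all 12 expressed (among them S100a8, S100a9, Cxcr2 and Retnlg), was 1.46 above the control mean on the log2 scale in control replicate 2 and between -0.68 and -0.22 in the other controls. In the dose groups its range was -0.60 to 0.04, -0.37 to 0.31 and -0.66 to 1.69, the highest being 162 µg replicate 2. That mouse also had the highest Il1r2 (5.54) and Il1b (4.77) of the series. The values did not always move together, since 18 µg replicate 4 had an Il1b of 4.17 with a neutrophil mean of -0.44, and 162 µg replicates 1 and 4 had a higher Il1r2 (4.17 and 4.08) than control replicate 2 with lower neutrophil means (0.33 and 0.44). None of the 12 neutrophil genes was called by limma at any dose (25%, 8.33% and 16.7% with an unadjusted p under 0.05, beside 22.3%, 13.9% and 28.9% of expressed genes), with a median log2 fold change of -0.04, 0.18 and 0.32 (all expressed genes: -0.02, -0.01 and -0.01). At 162 µg, 9 of the 12 had a positive difference and 3 a negative one. At 162 µg, replicate 6 had the lowest neutrophil mean of its group (-0.66), below 4 of the 5 controls, and the lowest Il1r2 (2.02), which was above 4 of the 5 controls. Without control replicate 2, 3 of the 12 were called at 162 µg, while the calls over all probes went from 2002 to 2033. The part of neutrophil content in the Il1b and Il1r2 differences was not tested.

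**Figure D3:**
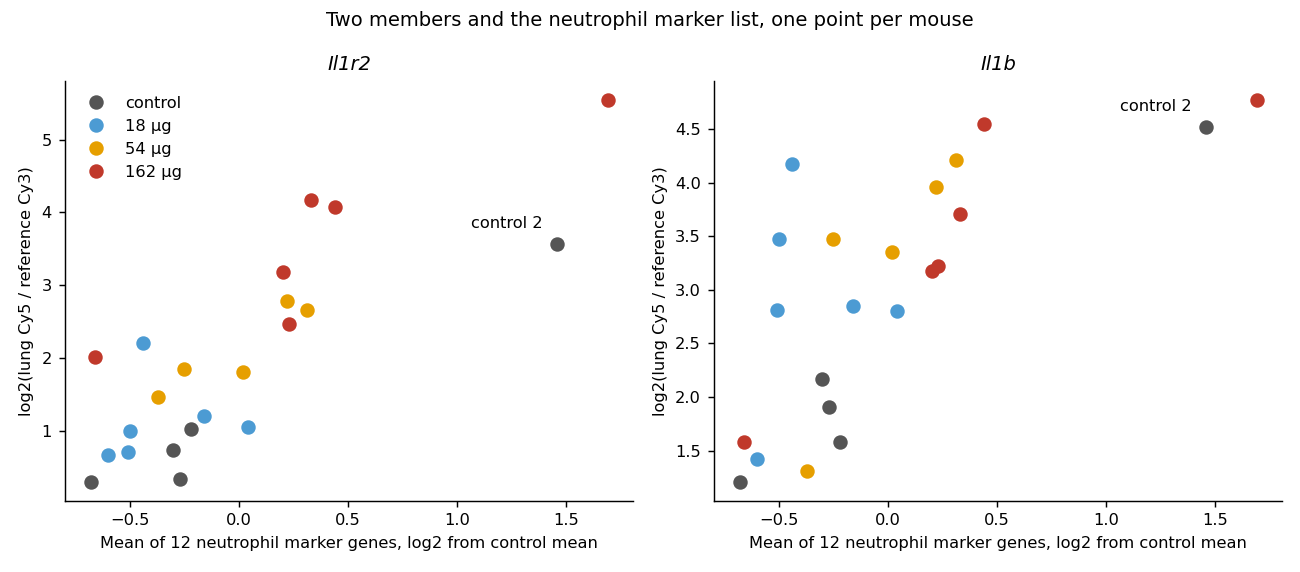
Log2 ratio of Il1r2 (left, y axis) and Il1b (right, y axis) against the mean of 12 neutrophil marker genes in log2 units from the control mean (x axis). Points are mice coloured by dose. Control replicate 2 (1.46) and 162 µg replicate 2 (1.69) lie to the right of all other mice, which are between -0.68 and 0.44.

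The 3 expressed genes whose values over the 22 arrays were nearest to those of Il1r2 were Arg2, Cebpd and Csrnp1, of 15000 compared. Likeness was the root mean square difference of log2 ratios, each gene centred on its control mean, and it was 0.75 for Arg2, 0.76 for Cebpd and 0.77 for Csrnp1. Cebpd codes for a transcription factor of the acute phase response, and Arg2 for the mitochondrial arginase. At 162 µg their log2 fold changes were 1.38 for Arg2 (adjusted p = 0.00219), 1.91 for Cebpd (adjusted p = 0.00954) and 1.55 for Csrnp1 (adjusted p = 0.0203) in limma. Control replicate 2 was above the control mean in all 3, by 1.10, 2.20 and 2.04, as it was in Il1r2. The 3 genes were picked by likeness to Il1r2 over these same arrays. Their differences at 162 µg and in control replicate 2 thus follow in part from the choice and are not separate findings.

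Il33 codes for a nuclear alarm signal that alveolar type II and other barrier cells store. Its log2 ratio was 1.91, 1.25, 2.07, 1.86 and 1.68 in the controls, a narrower range than in any dose group. It ran from 0.89 to 4.90 (median 3.46) at 18 µg, was 3.71, 3.46, 1.61, 3.94 and 4.38 at 54 µg, and ran from 1.54 to 3.74 (median 2.72) at 162 µg. In 14 of the 17 dosed mice Il33 was above all controls. The exceptions were 18 µg replicate 6 (0.89, below all controls), 54 µg replicate 3 (1.61) and 162 µg replicate 6 (1.54).

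The fitted log2 fold change of Il33 was 1.51 (SE 0.58, adjusted p = 0.206) at 18 µg, 1.76 (SE 0.62, adjusted p = 0.361) at 54 µg and 1.02 (SE 0.58, adjusted p = 0.396) at 162 µg in limma. In fold terms the differences were 2.85 (95% interval 1.22 to 6.63), 3.38 (1.37 to 8.35) and 2.02 (0.869 to 4.71). Within slides all 11 dosed mice were above the control beside them, the margins at the 3 doses being 1.02 to 2.30, 1.39 to 2.26 and 0.27 to 1.60. The 3 low mice lay on the 2 slides without a control, so they enter no such difference, and the highest mouse of each dose (4.90, 4.38 and 3.74) lay on those slides too.

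The 3 low mice are also 3 of the 4 arrays with under 60% of probes above background. With those 4 arrays left out, a choice made after the values were seen, Il33 passed at each dose in limma, at 1.52 (SE 0.24, adjusted p = 0.00677), 1.90 (SE 0.27, adjusted p = 0.00416) and 0.90 (SE 0.24, adjusted p = 0.0364). Over all 55681 probes the calls also went up, from 582 to 877, from 99 to 349 and from 2002 to 2399. The remaining array, 162 µg replicate 4, had the highest Il33 of its group (3.74). All 4 arrays lay on the 2 slides without a control. The mice left on those slides, 18 µg replicate 4 (4.90) and 54 µg replicate 5 (4.38), are each alone on a slide in that fit. The slide term then takes them up, so these mice, the highest of their groups, bear neither on the dose differences nor on their SE. That fit thus rests on the slides with a control. Without 54 µg replicate 3 alone, Il33 passed at 54 µg (2.38, adjusted p = 0.0145), and the calls over all probes at that dose rose from 99 to 241. This was the 1 pass at 54 µg among the 22 fits without 1 mouse. Over those fits the value ran from 1.24 (without 54 µg replicate 5) to 2.38, with adjusted p from 0.0145 to 0.653 in limma. The part of low signal in the 3 low values was not tested.

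ST2 (Il1rl1), the receptor for interleukin 33, exists as a membrane form and a shorter soluble form that binds interleukin 33 without signalling. Of its 3 probes, 2 were expressed, and these carry different RefSeq accessions. On the brightest, the log2 ratio was -5.56, -5.52, -5.05, -6.35 and -4.82 in controls, ran from -4.91 to -4.45 (median -4.77) at 18 µg, was -4.94, -5.01, -4.61, -5.04 and -5.29 at 54 µg, and ran from -5.52 to -4.11 (median -5.14) at 162 µg. The negative values mean that the reference pool gave a much higher signal than lung. Brightness was ranked over both channels. In lung Cy5 alone the controls gave 175 to 437 on this probe and 323 to 696.5 on the next. Its log2 fold change was 0.68 (SE 0.23, adjusted p = 0.151), 0.35 (SE 0.25, adjusted p = 0.789) and 0.37 (SE 0.23, adjusted p = 0.458) at the 3 doses. On the next probe it was 0.54 (SE 0.22, adjusted p = 0.229), 0.14 (SE 0.23, adjusted p = 0.947) and -0.11 (SE 0.22, adjusted p = 0.876), so the probes took opposite signs at 162 µg. The last probe was well above background on none of the 22 arrays.

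Il1r1, the signalling receptor for interleukin 1, had log2 ratios of 0.54, 0.33, 0.10, 0.28 and 0.39 in controls. It ran from -0.22 to 0.57 (median 0.30) at 18 µg, was 0.71, 0.70, 0.23, 0.48 and 1.00 at 54 µg, and ran from 0.36 to 1.04 (median 0.52) at 162 µg. The groups overlapped at every dose. The log2 fold change was -0.04 (SE 0.13, adjusted p = 0.932), 0.36 (SE 0.14, adjusted p = 0.439) and 0.32 (SE 0.13, adjusted p = 0.182). The interval at 162 µg allows 1.03 to 1.52-fold.

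Il1a and Il1rn were dim. Il1a, the cell-bound ligand, was well above background on no control and no 18 µg array, 1 of 5 arrays at 54 µg and 1 of 6 arrays at 162 µg, so its ratios rest on signals near background. Its values were 0.24, 0.13, 0.23, -0.03 and 0.02 in controls and 0.45, 0.62, 0.36, 0.28 and 0.56 at 54 µg, with every mouse at 54 µg above every control. At 18 µg it ran from 0.15 to 0.64 (median 0.24) and at 162 µg from -0.13 to 0.50 (median 0.09), both overlapping controls. The log2 fold change was 0.16 (SE 0.10, adjusted p = 0.515), 0.27 (SE 0.11, adjusted p = 0.460) and -0.03 (SE 0.10, adjusted p = 0.943). In normalized Cy5 alone, set against the lowest reliable signal of the control arrays, the group means of Il1a gave 1.04-fold both at 54 µg and at 162 µg, where the fitted log2 difference was -0.03, so no direction is drawn from them.

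Il1rn codes for the secreted antagonist that blocks Il1r1. It was well above background on no control array and on 2 of 6, 3 of 5 and 2 of 6 arrays with increasing dose. Its log2 ratio was -0.33, 0.08, 0.01, -0.07 and -0.18 in controls and 0.11, 0.52, 0.14, 0.09 and 0.23 at 54 µg, with no overlap between these groups. It ran from -0.35 to 0.44 (median 0.14) at 18 µg and from 0.00 to 0.45 (median 0.17) at 162 µg, where 5 of 6 mice were above all controls. Set in the same way against the lowest reliable control signal in Cy5, the group means of Il1rn gave 1.18-fold at 18 µg, 1.24-fold at 54 µg and 1.20-fold at 162 µg. The fitted ratio gave 1.15, 1.24 and 1.21-fold with 95% intervals that all reach below 1, so the Cy5 values are not firm lower limits. They come from 1 dye in a design without dye swaps, where dye bias cannot be told apart. The log2 fold change of the ratio was 0.20 (SE 0.14, adjusted p = 0.550), 0.32 (SE 0.15, adjusted p = 0.588) and 0.28 (SE 0.14, adjusted p = 0.317).

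Il18, an interferon γ-inducing ligand kept as a precursor in epithelium and macrophages, was lower than in controls in the fits at all 3 doses without passing. It was 1.17, 1.44, 1.02, 0.73 and 1.22 in controls, ran from -0.68 to 1.39 (median 0.73) at 18 µg, was 1.02, 0.83, 0.75, 1.13 and 0.78 at 54 µg, and ran from 0.27 to 1.22 (median 0.64) at 162 µg. Below all controls were 3 of 6 mice given the lowest dose and 4 of 6 given the highest. The log2 fold change was -0.47 (SE 0.19, adjusted p = 0.241), -0.26 (SE 0.20, adjusted p = 0.812) and -0.34 (SE 0.19, adjusted p = 0.391). Within slides, 9 of 11 dosed mice were below their control, 1 was above it and 1 was equal to it at 2 decimals.

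Casp1, the protease of the inflammasome, had log2 ratios of -0.46, -0.31, -0.93, -0.57 and -0.91 in controls. It ran from -1.32 to -0.34 (median -0.81) at 18 µg, was -0.53, -1.31, -2.03, -1.22 and -0.89 at 54 µg, and ran from -1.69 to -0.95 (median -1.36) at 162 µg. All 6 mice at 162 µg were below all 5 controls, the nearest by a narrow margin (-0.95 against -0.93). The log2 fold change was -0.04 (SE 0.21, adjusted p = 0.959), -0.45 (SE 0.22, adjusted p = 0.609) and -0.53 (SE 0.21, adjusted p = 0.170), the last being 1.44-fold lower and below the fold threshold. Leaving out 54 µg replicate 3, the mouse with the lowest Casp1 (-2.03), brought the difference at 162 µg to -0.59 (adjusted p = 0.0449), past both thresholds. Over all probes the calls at 162 µg then rose from 2002 to 2294. The mouse left out is in neither of the groups compared. Over the 22 fits without 1 mouse, Casp1 at 162 µg ran from -0.64 to -0.38 (the latter without control replicate 2). Adjusted p ran from 0.0449 to 0.406 in limma, and Casp1 passed in 1 of these fits. The lowest Casp1 of each dose group lay on an array with under 60% of probes above background. These were 18 µg replicate 6 (-1.32), 54 µg replicate 3 (-2.03) and 162 µg replicate 6 (-1.69). The remaining such array, 162 µg replicate 4, was at -1.52. The part of low signal in the Casp1 difference was not tested.

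Groups without overlap were counted for all members. At 18 µg 0 of 10 members had all mice on 1 side of all controls, where 3.41% of expressed named genes did. At 54 µg there were 2 of 10 (Il1a and Il1rn, both dim) against 3.31%, and at 162 µg 1 of 10 (Casp1) against 8.21%.

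Nlrp3, the sensor that nucleates the inflammasome, had log2 ratios within a narrow range, on low signals. Its brightest probe had Cy5 signals of 82 to 288. It was well above background on 5 of 5 controls and on 5 of 6, 4 of 5 and 5 of 6 arrays with increasing dose. For its dimmer probe the counts were 5 of 5, 1 of 6, 4 of 5 and 3 of 6. The ratios of Nlrp3 thus rest partly on signals near background, and no absence of change is drawn from them. On the brightest probe the log2 ratio was 0.11, 0.18, 0.37, 0.20 and 0.27 in controls, ran from -0.55 to 0.37 (median 0.07) at 18 µg, was 0.34, 0.47, 0.17, 0.01 and 0.08 at 54 µg, and ran from -0.15 to 0.23 (median 0.06) at 162 µg. The log2 fold change was -0.12 (SE 0.12, adjusted p = 0.726), 0.08 (SE 0.13, adjusted p = 0.948) and -0.10 (SE 0.12, adjusted p = 0.773), and the 95% interval at 162 µg covers 0.778 to 1.12-fold. Its dimmer probe gave 0.11 (SE 0.08), 0.19 (SE 0.09) and 0.15 (SE 0.08), the opposite sign at 18 and 162 µg.

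**Figure D4:**
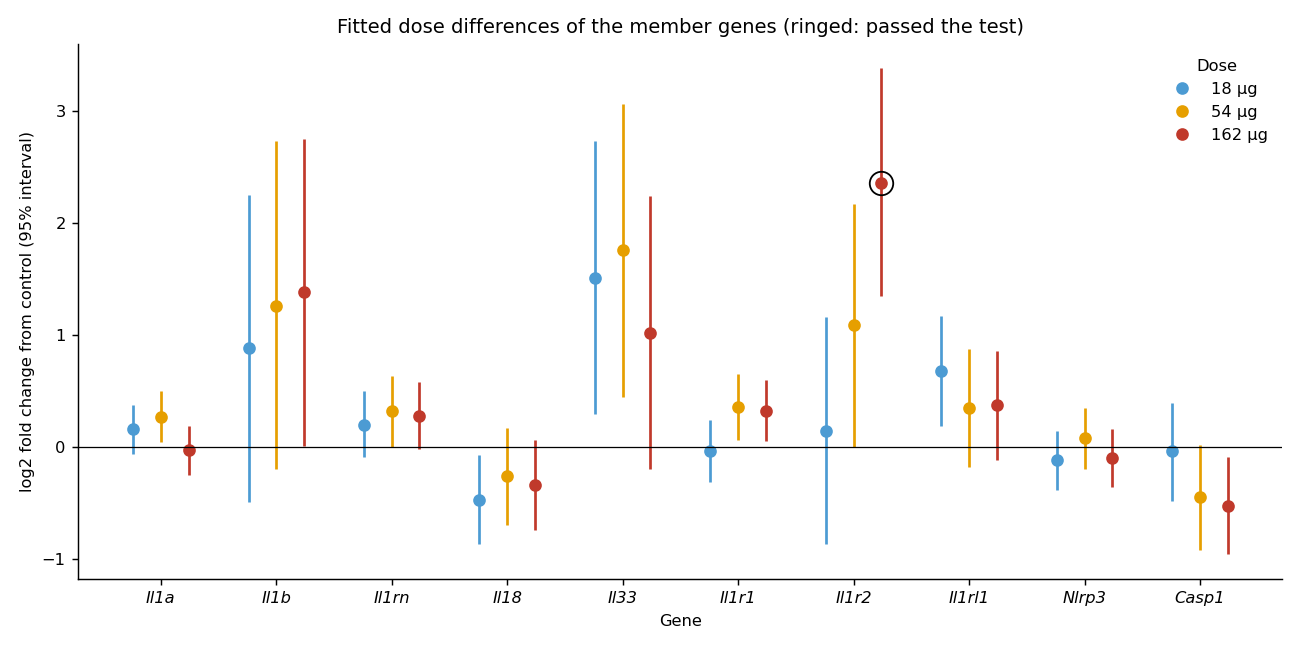
Fitted log2 fold change from control (y axis) of the 10 genes (x axis) at 18, 54 and 162 µg, each on its brightest probe. Points are estimates, bars are 95% intervals, and the ring marks the 1 value that passed the test, Il1r2 at 162 µg (2.36). Il1b, Il33 and Il1r2 have intervals several times wider than those of Nlrp3 and Il1r1.

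The rest of the pathway was counted from lists of known genes. Of the other ligands and antagonists 3 of 6 were expressed and of the other receptors 5 of 7, and limma called 0 of them at any dose (at most 1 gene of each list had an unadjusted p under 0.05). Il18bp, which neutralises interleukin 18, had log2 fold changes of 0.72, 0.70 and 0.68 (adjusted p = 0.0936, 0.297 and 0.0653 in limma), and Il1f9 had 0.04 at 162 µg. Il18rap, a chain of the interleukin 18 receptor, was 0.58 higher at 162 µg (SE 0.13, adjusted p = 0.0155), just short of 1.5-fold, and Il1rap, the shared accessory chain, was at -0.27 (adjusted p = 0.512). Of 15 genes of interleukin 1 receptor signalling, all expressed, 0 were called (26.7%, 13.3% and 33.3% under 0.05 unadjusted, beside 22.3%, 13.9% and 28.9% of all expressed genes) and the median log2 fold change was -0.02, -0.07 and -0.01. The adaptor Myd88 had the largest value at 162 µg (0.58, SE 0.15, adjusted p = 0.0266), also short of 1.5-fold, and Tab1 was at -0.35 (adjusted p = 0.0697). Without control replicate 2, 1 gene of the receptor list and 1 of the signalling list were called at 162 µg. Without the 4 dim arrays 1 of the ligand and antagonist list was called at that dose. Over all probes 2033 and 2399 were called at 162 µg in these fits, beside 2002 in the main fit. Of the other inflammasome genes 20 of 21 had an expressed probe and 0 were called (15%, 15% and 25% under 0.05 unadjusted), with 10 higher and 10 lower at 162 µg. The largest were Txnip (0.55, SE 0.22, adjusted p = 0.188), a thioredoxin binder, and Mefv (0.54, SE 0.64, adjusted p = 0.769), which codes for pyrin.

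Several genes known to respond to interleukin 1 differed from controls. Their list was chosen with earlier results of these data known, so its shares and ranges describe the listed genes and do not test the pathway. Of 19 expressed genes on that list, 2 were called at 18 µg, 2 at 54 µg and 10 at 162 µg, all of them higher. That is 10.5%, 10.5% and 52.6%, beside 2.07%, 0.389% and 6.87% of all expressed genes. Their median log2 fold change was 0.18, 0.47 and 0.74, against the same medians of all expressed genes as given above. At 162 µg Il6, the acute phase cytokine, rose by 3.11 (SE 0.50, adjusted p = 0.00153), the neutrophil chemokine Cxcl1 by 2.59 (SE 0.31, adjusted p = 0.000241) and Cxcl5 by 2.29 (SE 0.59, adjusted p = 0.0270). The monocyte chemokine Ccl2 rose by 2.21 (SE 0.49, adjusted p = 0.0122), the siderophore binder Lcn2 by 1.65 (SE 0.27, adjusted p = 0.00193) and the NF-kB inhibitor Nfkbia by 0.99 (SE 0.29, adjusted p = 0.0483). Cxcl1 had already passed at 18 µg (1.42, adjusted p = 0.0350) and 54 µg (2.29, adjusted p = 0.0118). Many other signals also induce these genes, so the list is not a measure of interleukin 1 alone. The counts were 0, 1 and 9 without control replicate 2, and 5, 5 and 9 without the 4 dim arrays. Over all probes 769, 102 and 2033 were called without that control, and 877, 349 and 2399 without those arrays. The main fit called 582, 99 and 2002. The fit without the dim arrays rests on the slides with a control, as given above.

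Over mice, the mean of the 19 genes in log2 units from the control mean spanned -0.06 to 0.07 for controls, then 0.25 to 0.96, 0.29 to 1.32 and 0.85 to 1.47 with increasing dose. No dosed mouse fell in the range of the controls. Control replicate 2, high in Il1b, Il1r2 and neutrophil genes, was at -0.06, the lowest of the controls.

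Of 12 genes of the type 2 response that interleukin 33 is known to evoke, all expressed, 4 were called at 18 µg, 2 at 54 µg and 3 at 162 µg, all higher (33.3%, 16.7% and 25% of the list, beside 2.07%, 0.389% and 6.87% of all expressed genes). The median log2 fold change was 1.58, 1.12 and 1.06, beside -0.02, -0.01 and -0.01 over all expressed genes. This list too was chosen with earlier results of these data known. Without the 4 dim arrays, 8, 6 and 5 of the 12 were called, and without control replicate 2, 3, 1 and 2. Over all probes 877, 349 and 2399 were called in the first fit and 769, 102 and 2033 in the second. The first rests on the slides with a control, as given above. Ccl17, a chemokine for T helper 2 cells, rose by 1.75 (SE 0.32, adjusted p = 0.0172), 1.78 (SE 0.34, adjusted p = 0.0367) and 1.46 (SE 0.32, adjusted p = 0.0105). Arg1, an arginase of alternatively activated macrophages, rose by 2.06 (SE 0.46, adjusted p = 0.0407), 2.92 (SE 0.50, adjusted p = 0.0269) and 1.76 (SE 0.46, adjusted p = 0.0328). Retnla (1.51, adjusted p = 0.0326) and Chil3 (1.73, adjusted p = 0.0454), 2 further products of such macrophages, passed at 18 µg, and Areg, a growth factor of epithelial repair, at 162 µg (1.68, adjusted p = 0.0181). Over mice the list mean ran from -0.25 to 0.42 in controls and from -0.05 to 2.48, 0.36 to 1.95 and 0.65 to 1.65 at the 3 doses. The 3 mice with low Il33 were at -0.05 (18 µg), 0.36 (54 µg) and 0.90 (162 µg), the first 2 being the lowest of their groups. On the interleukin 1 response list the same mice were at 0.25, 0.29 and 0.85, each the lowest or tied lowest of its group. All 3 are among the 4 dim arrays. The remaining dim array, 162 µg replicate 4, was the highest of its group on both lists (1.65 and 1.47). The part of low signal in these values was not tested.

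**Figure D5:**
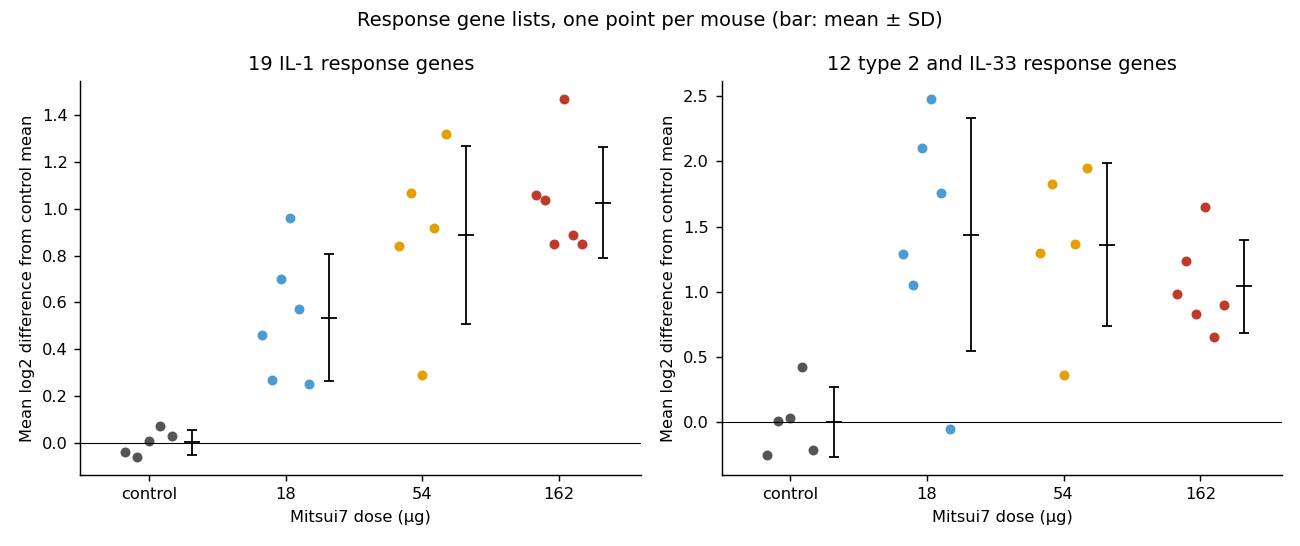
Mean log2 difference from the control mean (y axis) by dose in µg (x axis) for 19 expressed interleukin 1 response genes (left) and 12 genes of the type 2 response to interleukin 33 (right). Points are mice, and bars are mean ± SD. On the left all 17 dosed mice are above the highest control (0.07), and on the right the lowest mice at 18 and 54 µg (-0.05 and 0.36) lie within the range of the controls (-0.25 to 0.42).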

How the data were processed

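Agilent arrays of 2 colours measured right lung RNA of 22 mice. For every spot the authors deposited an intensity (median signal) in both channels, without background subtraction or normalization, and for every probe a log2 ratio, used as an alternative. The scanner software was Agilent Feature Extraction 10.7.3.1. Here, Cy5 to Cy3 log2 ratios were loess normalized within arrays (span 0.3), spots marked as outliers were left out, and the median was taken over replicate spots. Probes were named through RefSeq accessions (26413 of 55681). Dose and slide were fitted in limma 3.58.1 (R 4.3.3) with 12 residual degrees of freedom. This differs from the MAANOVA permutation test of the study's methods. Expressed probes exceeded the trimmed mean (5%) plus 3 trimmed SD of 308 negative spots on 80% of the arrays of a group. A gene was taken by its brightest probe, by mean log2 intensity over both channels and all arrays. Slide and scan date coincide. Pathway genes are named if called (up to 6 by size at 162 µg), otherwise the 2 largest of those expressed. The members and lists were chosen with earlier results of these data known. The number of arrays limits the precision. Alternatives were other background corrections, normalizations, filters, thresholds, slide terms and probe choices, the deposited log2 ratios, and leaving out each mouse.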

Additional observations from a re-analysis of the deposited data

Results flagged for a closer look

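Of 40 sets of values (10 genes in 4 groups), 3 held a mouse far from the rest of its group by Dixon's criterion, which chance meets in about 1 in 20 groups. For Il1r2, control replicate 2 was at a log2 ratio of 3.57, with the next control at 1.03. At 18 µg, replicate 4 was at 2.21 for Il1r2, with the next mouse at 1.21, and at 0.64 for Il1a, with the next at 0.33. The same mouse had the highest Il33 (4.90) and Il1b (4.17) of its group.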

How the results depend on the processing

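The call of Il1r2 held in 15 of 16 alternative settings and in all 22 fits without 1 mouse, both at 162 µg (log2 fold change 1.90 to 2.58 over the settings) and between 162 and 18 µg (1.66 to 2.55). Not all 16 are separate checks. The settings with another filter on dim probes or no fold threshold reused the main fit. Averaging the probes of a gene leaves the values of Il1r2, which has 1 probe, as they were. Without normalization the call of Il1r2 was lost, with 2.02 (adjusted p = 0.206) and 1.96 (adjusted p = 0.132), and 0 members were called in either comparison. Over all probes the calls then fell from 2002 to 8 at 162 µg and from 1365 to 44 between 162 and 18 µg. The cause was not tested. The replicate numbers were not taken to pair the mice, since not every pair of same-numbered mice correlated above 0.1 in its deviations (-0.17 to 0.62, median 0.17). On different slides the median was 0.10 for mice of the same number and -0.08 for mice of different numbers. Pairs on the same slide did not all exceed 0.1 either (-0.24 to 0.62, median 0.26). Slide was fitted because the model in the study's methods held a slide effect, so this criterion alone does not decide between the blocks. With the replicate block in place of slide, Il33 was called at 18 µg (1.74, adjusted p = 0.0289) and Il1b at 162 µg (1.56, adjusted p = 0.0370), so that 1 member was called at 18 µg and 2 at 162 µg. Over all probes the calls went from 582 to 864 at 18 µg and from 2002 to 2118 at 162 µg. With only the 2 groups compared in a fit, few complete slides remained, and 1, 3 and 2 members were called at 18, 54 and 162 µg: Il33 at each dose (1.62, 1.82 and 0.94), with Il1b (1.94) and Il1r2 (1.45) at 54 µg. Over all probes 154, 919 and 1958 were called in those fits, beside 582, 99 and 2002 in the main fit. With the 4 dim arrays left out, an alternative chosen after seeing the data, the counts were 1, 1 and 2. That fit rests on the slides with a control, and over all probes it called 877, 349 and 2399. With single mice left out the member counts ranged from 0 to 1 at 54 µg and from 1 to 2 at 162 µg, the higher counts both without 54 µg replicate 3. Without that mouse 241 and 2294 probes were called over all at these doses. No setting gave a call between 54 and 18 µg or between 162 and 54 µg.

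Values near 0 changed sign in places. On Cy5 alone these were Il1r1 at 18 µg (0.04), Nlrp3 at the 3 doses (0.18, -0.06 and 0.10) and between 162 and 18 µg (-0.08), Il1a at 162 µg (0.32) and Il1rn between 162 and 18 µg (-0.21). In the deposited log2 ratios they were Il1r1 (0.08), Il1r2 (-0.05) and Nlrp3 (0.00) at 18 µg, Il1a at 54 µg (-0.05) and Nlrp3 between 162 and 18 µg (-0.13). Without the slide term they were Il1r2 at 18 µg (-0.05), Nlrp3 at 54 µg (-0.01) and Il1a at 162 µg (0.01), and with the replicate block Nlrp3 at 54 µg (-0.01) and Il1a at 162 µg (0.03). Il1r2 at 18 µg was -0.24 with only the 2 groups compared and -0.02 without the dim arrays, where Il1rn (0.00) and Nlrp3 (-0.15) also turned between 162 and 18 µg. Il1r1 at 162 µg was -0.01 without normalization. Nlrp3 at 162 µg was 0.03 as the mean of its probes and 0.15 on its dimmer probe, which gave 0.11 at 18 µg, and Il1rl1 at 162 µg was -0.11 on its next probe and -0.10 on the last, which was well above background on no array and gives no measured change. Over the fits without 1 mouse, values at 18 µg ranged from -0.12 to 0.03 for Il1r1, -0.13 to 0.71 for Il1r2 and -0.17 to 0.10 for Casp1, and Il1a at 162 µg from -0.07 to 0.03. Between 162 and 18 µg they ranged from -0.06 to 0.17 for Il1rn, -0.06 to 0.24 for Il18 and -0.11 to 0.08 for Nlrp3. Dim signals limit what Il1a and Il1rn can show, and low signals limit Nlrp3.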
